A study of Mus musculus with 2 samples.

Results

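Natural killer (NK) cells and group 1 innate lymphoid cells (ILC1) that carried no CD3 transcript were picked from single-cell RNA sequencing of mouse bone marrow. A cell was taken when it had at least 1000 genes, at most 10% of its unique molecular identifiers (UMIs, counted cDNA molecules) from mitochondrially encoded genes, an Ncr1 UMI, a UMI of Klrb1c, Klrk1 or Klre1, no UMI of Cd3d, Cd3e or Cd3g, and at most 1 UMI of Zbtb16. The rule was met by 481 of 7633 kept cells, of which 363 came from the library of LCR1 knocked-out animals (KO) and 118 from the library of wild-type animals (WT). Because the rule reads measured UMIs, the levels of those genes describe the choice and test nothing. Both libraries came from C57BL/6 marrow (C57BL/6J in the series' design text), from viable CD45+ cells that were negative for lineage markers and positive for CD127, a chain of the receptor for interleukin-7. Each was made from pooled animals of 8 to 12 weeks, males and females in the same number, and the 2 groups differ by label in LCR1 alone. With 1 library per genotype no difference between KO and WT has a replicate check, so no test was run, and a pooled library gives no spread between animals. The antibodies of the lineage mix are not listed, and the CD127 gate removes cells that have lost this receptor, as many mature NK cells have. The labels do not place LCR1 in the genome, so no transcript checks the genotypes directly.

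NK cells and ILC1 are innate lymphocytes of the type 1 branch, which respond to interleukin-12, interleukin-15 and interleukin-18 and release interferon-gamma. Both carry the activating receptor NKp46, the product of Ncr1, and NK1.1, the product of Klrb1c, and both depend on T-bet, the product of Tbx21. Conventional NK cells also use Eomes, a T-box factor related to T-bet, kill target cells with perforin and granzymes and gain Ly49 receptors as they mature in the marrow, whereas ILC1 are mostly tissue-resident, lack Eomes and keep the interleukin-7 receptor. Id2 binds E proteins and keeps them off DNA, and it is needed for innate lymphoid cells to form.

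The promoters of 3 genes are shown because Ncr1 chose the cells, Eomes divides them and Id2 was the gene with the most UMIs among those past the rule of size between KO and WT. They run from 250 bases before to 50 bases after the gene start, as RefSeq gives them on GRCm38.p6, 5′ to 3′ on the gene's own strand. Ncr1 is at chr7:4337474-4337773 (plus strand), Eomes at chr9:118477939-118478238 (plus strand) and Id2 at chr12:25096043-25096342 (minus strand). Capitals mark the RUNX core TGTGGT in either orientation in Ncr1 and the E-box CAGCTG in Id2.
Ncr1: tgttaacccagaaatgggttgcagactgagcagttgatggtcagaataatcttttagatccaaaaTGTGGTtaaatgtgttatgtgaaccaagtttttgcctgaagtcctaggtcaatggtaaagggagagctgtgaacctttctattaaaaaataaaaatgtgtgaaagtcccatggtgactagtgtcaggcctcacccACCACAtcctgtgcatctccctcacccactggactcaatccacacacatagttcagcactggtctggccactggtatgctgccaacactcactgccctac
Eomes: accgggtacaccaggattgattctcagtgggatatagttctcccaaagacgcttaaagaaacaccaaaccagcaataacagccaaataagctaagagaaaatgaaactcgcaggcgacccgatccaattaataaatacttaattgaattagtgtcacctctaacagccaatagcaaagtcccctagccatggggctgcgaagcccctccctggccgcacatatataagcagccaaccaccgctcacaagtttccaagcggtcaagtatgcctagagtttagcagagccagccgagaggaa
Id2: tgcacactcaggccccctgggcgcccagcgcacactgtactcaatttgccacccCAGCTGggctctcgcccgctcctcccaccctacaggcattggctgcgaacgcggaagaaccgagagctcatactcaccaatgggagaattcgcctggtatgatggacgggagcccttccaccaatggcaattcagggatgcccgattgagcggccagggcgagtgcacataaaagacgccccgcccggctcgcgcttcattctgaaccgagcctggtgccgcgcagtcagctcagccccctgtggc
The search covered both strands for the RUNX core TGTGGT, the ETS core GGAAGT, the E-box CANNTG and the T-box site AGGTGTGA. Ncr1 held 2 RUNX cores and 1 E-box (in lower case above), Id2 held 1 E-box, Eomes held none of the 4 motifs, and no match overlapped another. Of 32851 promoters of this length, 16.8% held the RUNX core, 23.8% the ETS core, 72.3% an E-box and 1.28% the T-box site. These matches describe letters and are not binding sites. GC content was 45% in the Ncr1 window, 47.3% in that of Eomes and 63.3% in that of Id2, against a median of 52.7% over all promoters.

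The KO library listed 8476 barcodes with 52137780 UMIs and the WT library 20293 barcodes with 47883132 UMIs, and 4343 KO and 3290 WT cells passed the limits on genes and mitochondrial UMIs. The members held 2459292 UMIs in KO and 849233 in WT. Their median depth was 4940 UMIs and 1974 genes in KO and 5952.5 UMIs and 2223 genes in WT, with a range of 1958 to 45119 UMIs in KO and 1934 to 56395 in WT. The largest WT member alone gave 6.64% of all WT member UMIs and the largest KO member 1.83%. Barcode sequences shared by the libraries numbered 75, among them that of the largest WT member and that of 1 KO member, and no sequence was a member in both. Levels below are in CPM, the UMIs of a gene per 1000000 UMIs of the cell set. Intervals are exact, at 95%, and cover counting error only. A total of 3 UMIs, set as the floor, is 1.22 CPM in KO members and 3.53 CPM in WT members.

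Members made up 8.36% of kept cells in KO (363 of 4343, Clopper-Pearson interval 7.55 to 9.22) and 3.59% in WT (118 of 3290, 2.98 to 4.28). The kept cells had a median of 7261 UMIs in KO and 5371.5 in WT, and a gate, a pool and a minimum on genes all enter such a share. With a minimum of 500 genes the share was 8.18% in KO and 1.67% in WT. After thinning every kept cell to 1500 UMIs the rule found 4.88% in KO and 1.98% in WT. An effect of genotype and an effect of library cannot be told apart.

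Around the edges of the rule, 105 KO and 30 WT members had a single Ncr1 UMI and 258 KO and 88 WT members had 2 or more. Just outside stood 11 KO and 9 WT cells with 1 CD3 UMI, 15 KO and 4 WT cells with 2 Zbtb16 UMIs, and 298 KO and 209 WT cells with a lectin UMI and no Ncr1 UMI. Members with 1 Ncr1 UMI and members with more were alike in Il2rb, at 757 and 706 CPM in KO and at 573 and 553 CPM in WT. Cells with a lectin UMI but no Ncr1 UMI had 204 CPM of Il2rb in KO and 69.2 CPM in WT. A further 4 KO and 58 WT cells met the gene criteria with at least 500 but fewer than 1000 genes, and 14 KO and 4 WT cells with over 10% mitochondrial UMIs.

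The label held for the 2 markers that the rule did not read. Il2rb, the beta chain of the receptors for interleukin-2 and interleukin-15, stood at 718.5 CPM in KO members against 74.1 CPM in the other kept KO cells, and at 557 CPM in WT members against 47.8 CPM in the other WT cells. A UMI of Il2rb was found in 343 of 363 KO and 103 of 118 WT members. Tbx21 stood at 72.0 CPM in KO members against 5.53 CPM in other KO cells, and at 84.8 CPM in WT members against 3.74 CPM in other WT cells, with a UMI in 126 KO and 44 WT members. After thinning to 1500 UMIs, Il2rb was seen in 64.7% of KO and 57.6% of WT members and Tbx21 in 11.6% and 13.6%, whereas no B lineage cell of either library (121 KO and 60 WT cells with at least 2 Cd79a UMIs, a Cd79b UMI and no Ncr1 UMI, median 13130 and 15405.5 UMIs) had a UMI of either gene. Of the markers in the rule, Klre1 was the thinnest, with a UMI in 85 KO and 28 WT members.

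Beyond the genes of the rule, the 20 genes with the largest fold over other kept cells in both libraries included many receptors, 1 chemokine and 1 GTPase of lymphocytes, protease inhibitors of the serpin family and Tbx21. Among the lectin receptors of the NK gene complex were Klrb1a (165 CPM in KO members against 5.48 in other KO cells, 203 CPM in WT members against 3.28 in other WT cells) and Klrb1b, an inhibitory receptor, at 490 against 27.7 CPM in KO and 459 against 10.9 CPM in WT. Klrb1f, Klrc1, Klrc2 and Klri2 of the same complex were in this group too. Xcl1, a chemokine that draws cross-presenting dendritic cells, stood at 285 against 17.8 CPM in KO and 351 against 11.3 CPM in WT. Gimap4, a GTPase of lymphocyte survival, had 838 against 71.9 CPM in KO and 868 against 46.8 CPM in WT. Serpina3f, a serine protease inhibitor, had 198 against 9.91 CPM in KO and 190 against 6.85 CPM in WT. The chemokine receptor Cxcr3, the surface receptors Cd226, Cd160 and Cd7, the granzyme inhibitor Serpinb9, its relative Serpinb6b, and Ms4a4b, Sulf2 and Cpne7 completed the group with Il2rb and Tbx21. As the cells were chosen by related receptors, these values describe the set. Cells with NK genes and a CD3 UMI, described below, shared part of this profile. Il2rb was at 553 CPM in such KO cells and 490 CPM in such WT cells, and Tbx21 at 50.4 and 44.9 CPM. Ms4a4b was higher there than in members, at 910 against 518 CPM in KO and 840 against 617 CPM in WT. Klrb1b, at 65.5 CPM in KO and 150 CPM in WT, and Serpina3f, at 11.8 and 62.0 CPM, were lower there.

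**Figure D1:**
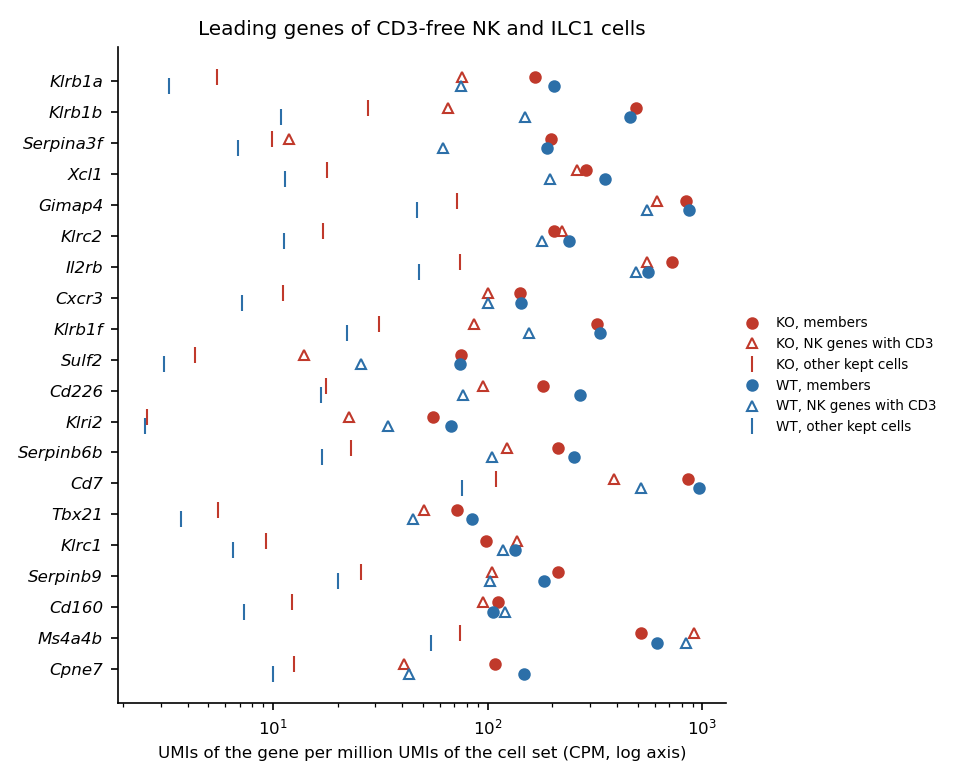
Levels of the 20 leading genes, in CPM on a log axis, for KO (red) and WT (blue); filled circles are members, open triangles are cells with NK genes and a CD3 UMI, and ticks are all other kept cells. Il2rb lies at 718.5 CPM in KO members and 557 CPM in WT members, against 74.1 and 47.8 CPM in the other kept cells of KO and of WT.

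The most abundant effector transcript was Ccl5, a chemokine for T cells and monocytes, at 2276 CPM in KO and 2722.5 CPM in WT members. Among 19 cytotoxic effector genes, Nkg7, of the granule membrane, was well seen, at 763 CPM in KO and 682 CPM in WT. Ctsw, cathepsin W, was well seen too, at 396 CPM in KO and 399 CPM in WT. The granzymes were not. Gzmb stood at 4.47 CPM in KO and 2.36 CPM in WT, Gzmk had no UMI in either library, and Prf1, perforin, was at 24.8 CPM in KO and 33.0 CPM in WT. Gzma was at 38.6 CPM in KO, where 14 cells held it and 1 cell gave 42.1% of the UMIs, and 1 WT member had 1 UMI. Interferon-gamma (Ifng) stood at 67.9 CPM in KO and 36.5 CPM in WT.

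The 17 genes of the late NK maturation list gave 1167 CPM together in KO and 1327 CPM in WT, but several of them were at or near 0. S1pr5, the egress receptor of mature NK cells, and the protease gene Cma1 had no UMI, Itgam (CD11b) had none in KO and 2.36 CPM in WT, and Klrg1 had 1.63 CPM in KO and none in WT. Lgals1, galectin-1, stood at 276 CPM in KO and 363 CPM in WT, Klf2, a transcription factor of lymphocyte trafficking, at 249 CPM in KO and 211 CPM in WT, and Itgb2, the beta chain of LFA-1, at 127 CPM in KO and 144 CPM in WT. The 11 Ly49 receptor genes together gave 30.9 CPM in KO and 3.53 CPM in WT, with no UMI in 352 of 363 KO and 116 of 118 WT members. A single KO cell held 60.5% of the Ly49 UMIs of KO. The 14 genes of the early NK list gave 5484 CPM in KO and 5974 CPM in WT, the 22 ILC1 genes 4826 CPM in KO and 5309.5 CPM in WT, and the 20 conventional NK genes, Ccl5 among them, 3400.2 CPM in KO and 4049.5 CPM in WT. Il7r, the transcript behind the CD127 gate, stood at 1195 CPM in KO and 1417 CPM in WT, and Cd7 at 861 CPM in KO and 961 CPM in WT. Tmem176b, a membrane protein gene of ILC1, was at 570 CPM in KO and 612 CPM in WT, Cxcr6, a chemokine receptor of ILC1, at 103 CPM in KO and 141 CPM in WT, Ltb, lymphotoxin beta, at 709 CPM in KO and 891 CPM in WT, and the nuclear receptor Rora at 567 CPM in KO and 506 CPM in WT. Other members of these lists were low, with Itga1 (CD49a) at 17.1 CPM in KO and 22.4 CPM in WT, Zfp683 (Hobit) at 2.85 CPM in KO and 2.36 CPM in WT, and Bcl11b at 18.7 CPM in KO and 25.9 CPM in WT. Since the sort itself asked for CD127, the level of Il7r cannot be set against NK cells outside the gate.

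T lineage transcripts were split. Cd5 had no UMI, and Trac, the constant region of the T cell receptor alpha chain, was found in 2 KO and 3 WT members. Trbc1 and Trbc2, the beta chain constant regions, stood at 390 and 374.5 CPM in KO and at 321 and 356 CPM in WT, and Trdc, of the delta chain, was seen in 19 KO and 8 WT members. Any of the 4 chains had a UMI in 320 KO members (88.2%) and 103 WT members (87.3%). The gamma chain genes were not among those 4. Tcrg-C4 was seen in 189 KO (52.1%) and 71 WT members (60.2%), Tcrg-C1 in 61 and 18, and Tcrg-C2 in 11 and 1. After thinning to 1500 UMIs, Trbc1 was found in 35.8% of KO and 33.9% of WT members, against 1.65% of the 121 KO and 0% of the 60 WT B lineage cells described above. Trbc2 was found in 39.9% of KO and 38.1% of WT members, against 2.48% of those KO and 0% of those WT B lineage cells. The shares of members with beta chain transcripts were thus above this background in both libraries. Counts at the 3′ end do not tell a rearranged from an unrearranged chain.

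UMIs of other lineages were counted, as no doublet caller was run. At least 2 UMIs of genes that define B, plasmacytoid dendritic, basophil, granulocyte or erythroid cells were found in 77 KO members (21.2%) and 45 WT members (38.1%). Most were basophil and mast cell genes, in 63 KO members (17.4%) and 39 WT members (33.1%). B lineage cells (at least 2 Cd79a UMIs) carried the same basophil genes at this level in 15.5% of KO and 55.4% of WT cells. These counts were not thinned, and the B lineage cells described above were deeper than members, so the shares are not at equal depth. A single KO cell held 343 of the 594 basophil UMIs of KO members. Genes of plasmacytoid dendritic cells were at this level in 8 KO and 6 WT members, and 1 WT cell gave 58 of 132 such UMIs.

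Cells that met the same Ncr1 and lectin criteria but held a CD3 UMI (110 in KO and 42 in WT, with no limit on Zbtb16) served as the nearest set. Class II genes and Ly49 receptors were among the genes that differed. H2-Aa stood at 206 CPM in KO members against 16.1 CPM in KO cells with CD3, and at 178 CPM in WT members against 34.2 CPM in WT cells with CD3. Cd74, the invariant chain of class II molecules, was at 581 against 60.1 CPM in KO and 711 against 212 CPM in WT. Klrb1b was 7.48-fold higher in members in KO and 3.07-fold higher in WT, and the creatine kinase gene Ckb 14.3-fold and 3.64-fold. Lower in members were Klra1, at 2.44 against 153 CPM in KO and 0 against 113 CPM in WT, and Klra7, at 19.1 against 249 CPM in KO and 0 against 229 CPM in WT. Ly6c2, a surface antigen of the Ly6 family, was at 96.0 against 605 CPM in KO and 149.6 against 477 CPM in WT. Ccl5 was at 2276 against 7339 CPM in KO and 2722.5 against 5659 CPM in WT. Both libraries gave the same direction for each of these genes, but the CD3 genes chose the sets, so the contrast is a description.

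The members were not uniform. Thinned to 1500 UMIs, Ccl5 had a median of 3 UMIs per cell in both libraries, a highest value of 32 in KO and 23 in WT, and no UMI in 113 KO members (31.1%) and 33 WT members (28.0%). Its variance over mean across cells was 6.93 in KO and 6.38 in WT, against a median of 1.02 in KO and 0.966 in WT over 6229 genes. Cd74 was spread in the same way, at 6.35 in KO and 6.39 in WT. Class II transcripts (Cd74, H2-Aa, H2-Ab1 and H2-Eb1) sat in few cells. In KO, 29 members (7.99%) with at least 5 thinned class II UMIs held 68.4% of them, in WT 14 members (11.9%) held 77.5%, and 245 KO members (67.5%) and 68 WT members (57.6%) had none after thinning.

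Class II-rich members were set beside members without class II UMIs after thinning, as a description. Ccl5 was at 1277 CPM in class II-rich KO members against 2776 CPM in class II-free KO members, and at 908 against 3193 CPM in WT. Il2rb was at 442 against 758 CPM in KO and 286 against 561 CPM in WT. Tmem176b was higher, at 996 against 496 CPM in KO and 834 against 513 CPM in WT, as was Cxcr6, at 178 against 89.9 CPM in KO and 172 against 121 CPM in WT. Ifng was at 70.3 against 66.8 CPM in KO and 24.5 against 32.2 CPM in WT. Cd79a, a B cell gene, had no UMI in the class II-rich members of either library. Siglech, of plasmacytoid dendritic cells, had none in the class II-rich members of KO and 196 CPM in those of WT, against 8.35 CPM in class II-free KO members and 121 CPM in class II-free WT members. Whether pairs of cells under 1 barcode enter these groups was not tested.

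Cycling members, taken as those with at least 5 thinned UMIs of 25 cell cycle genes, numbered 98 in KO (27%, interval 22.5 to 31.9) and 25 in WT (21.2%, 14.2 to 29.7). A thinned UMI of Mki67 or Top2a was found in 58 KO members (16.0%) and 18 WT members (15.3%). The intervals overlapped for both measures. Cycling KO members were deeper than the other KO members, with a median of 7566 UMIs against 4591, while cycling WT members had 4728 UMIs against 6119.

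Eomes was detected in 29 KO members (7.99%, interval 5.42 to 11.3) and 4 WT members (3.39%, 0.931 to 8.45), with 2 or more UMIs in 14 KO members and 1 WT member. These cells were deep, with a median of 11924 UMIs in the 29 KO cells against 4818.5 in the 334 undetected ones, and 10932.5 in the 4 WT cells against 5889.5 in the 114 undetected ones. Thinned to 1500 UMIs, Eomes was left in 9 KO members (2.48%) and 2 WT members (1.69%), and in no B lineage cell. An undetected cell may thus hold the transcript, and a detected one was more readily found when large. Of 3569 genes measured in KO, 208 were at least 2-fold higher in Eomes-detected members with an interval that left out 1 (5.83%) and 250 were lower (7%). In WT, with only 4 cells on 1 side, 84 of 2792 genes were higher (3.01%) and 102 lower (3.65%). Both libraries gave the same call for 6 higher genes (0.222% of 2708) and 27 lower genes (0.997%). Eomes-detected cells were deeper in both libraries and more often cycling in KO, so a difference by Eomes cannot be told apart from one by depth or, in KO, by cycle: 17 of the 29 KO cells (58.6%) and 1 of the 4 WT cells were cycling, against 81 of 334 (24.3%) and 24 of 114 (21.1%) undetected cells.

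The 6 genes higher with Eomes in both libraries included a calmodulin-binding protein and a galectin. Nrgn, the gene of that protein, was at 701 CPM in Eomes-detected against 227 CPM in undetected KO members, and at 767 against 177 CPM in WT. Lgals1, galectin-1, was at 502 against 234 CPM in KO and 1366 against 311 CPM in WT. Ppp1r14b, a phosphatase inhibitor gene, was at 465 against 185 CPM in KO and 336 against 140 CPM in WT. The other 3 were Gsto1, Glrx5 and Cox5a, a subunit of cytochrome c oxidase. Among members of middle depth, 19 KO and 3 WT of them Eomes-detected, 5 genes were higher in both libraries and 19 lower.

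The 27 genes lower with Eomes in both libraries included the chemokines Ccl5 and Xcl1. Ccl5 was at 949 CPM in Eomes-detected against 2517 CPM in undetected KO members, and at 599 against 2832 CPM in WT. Xcl1 was at 145 against 311 CPM in KO and 71.9 against 365 CPM in WT. Gimap3, of the same GTPase family as Gimap4, was at 167 against 713 CPM in KO and 144 against 796 CPM in WT, and Tmem176b at 222 against 634 CPM in KO and 216 against 633 CPM in WT. Ly6c2 had no UMI in any Eomes-detected member, against 113 CPM in undetected KO and 157 CPM in undetected WT members. Cpne7, Wls, Nfkbiz, Kctd12, Gpr183, Lyst, Asxl2, St8sia4 and Dntt were in this group too, and Klf2, Klf6, Btg1 and Tsc22d3 belonged to it as well. Dntt was lower in UMI sums but not in the share of cells that held it. A Dntt UMI was found in 27.6% of Eomes-detected against 20.7% of undetected KO members, and in 50% against 23.7% in WT. These shares were not thinned. The member with the most Dntt UMIs held 20.7% of them in KO and 41.5% in WT. With every member thinned to 1500 UMIs 0 lower and 3 higher genes passed in both libraries, and 73 higher and 71 lower genes passed in KO alone.

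Other genes, chosen after their values were seen, were past the rule in KO only. Gzma, a granzyme of NK cells, stood at 193 CPM in Eomes-detected against 10.6 CPM in undetected KO members (18.3-fold, interval 11.2 to 30.9), and 73 of its 95 UMIs were in the detected cells. A UMI of Gzma was found in 6 of the 29 detected and 8 of the 334 undetected KO members. A single Eomes-detected cell held 40 of the 95 UMIs, and the interval covers counting error only. The Ly49 receptor gene Klra7 had 47 UMIs in KO, below the minimum of 50, at 119 against 0.961 CPM, and 1 cell held 63.8% of them. It was seen in 5 of the 29 detected and 2 of the 334 undetected KO members and in no WT member. P2ry14, a receptor for UDP-sugars, was at 71.4 against 17.3 CPM in KO and 119.9 against 23.5 CPM in WT, where its UMIs were below the minimum of 50. Sh2d1a, the adaptor SAP, was at 92.5 against 25 CPM in KO and 47.9 against 13.6 CPM in WT. Lower with Eomes in KO were Ifng, at 13.2 against 77.8 CPM, Cd244, at 15.9 against 105 CPM, and the class II genes, with H2-Aa at 21.2 against 239 CPM and Cd74 at 119 against 665 CPM. In WT, Cd74 was at 983 against 697 CPM. The chemokine receptor Cxcr6 was also lower with Eomes in KO, at 26.4 against 117 CPM, while Ccr2, at 476 against 249 CPM, was short of 2-fold. Il7r was at 576 against 1307.5 CPM in KO and 1223 against 1427 CPM in WT.

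**Figure D2:**
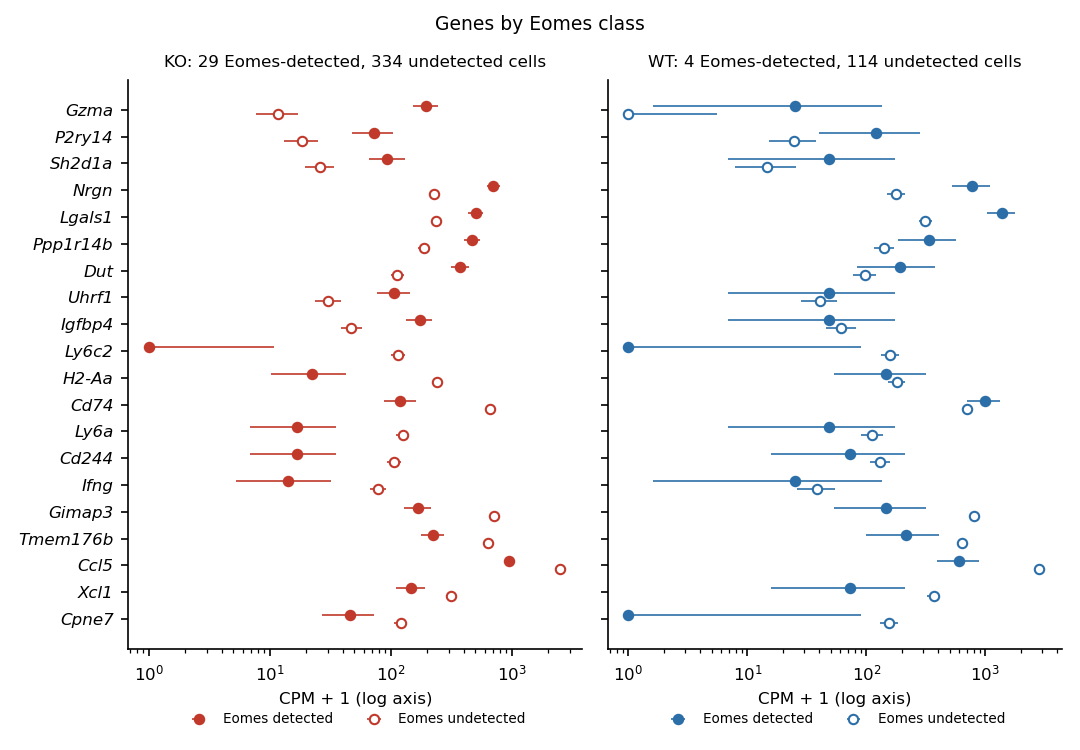
CPM + 1 on a log axis in Eomes-detected (filled) and Eomes-undetected (open) members, KO on the left and WT on the right; bars are exact Poisson intervals at 95%. Gzma lies at 193 against 10.6 CPM in KO, where 1 cell held 42.1% of its UMIs, and the bars of the 4 WT cells are wide.

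Between KO and WT members, Id2 was the gene with the most UMIs past the rule of size. A gene was called when it differed at least 2-fold with an interval of the ratio that left out 1. It also needed a sum of 50 UMIs and a level of 50 CPM in KO or WT. Of 3392 genes measured, 23 were higher in KO (0.678%) and 24 lower (0.708%). These counts hold gene models without a symbol and immunoglobulin genes, which were left out of the named genes. Among them, AC163354.1 was at 160 CPM in KO against 731 CPM in WT. It had a UMI in 46.6% of KO and 85.6% of WT members. AC163354.1 was lower in KO outside the members too, at 10.7 against 195 CPM in cells with NK genes and CD3. In cells with at least 2 Zbtb16 UMIs and no Ncr1 it was at 72.5 against 594 CPM. In other kept cells it was at 15.0 against 91.2 CPM. B930036N10Rik was higher in KO, at 233 against 98.9 CPM. Id2 stood at 629 CPM in KO members (1547 UMIs) against 1263.5 CPM in WT members (1073 UMIs), 2.01-fold lower in KO (interval 1.86 to 2.17), which is just past 2-fold. It had a UMI in 326 of 363 KO and 109 of 118 WT members, and after thinning in 63.4% (58.2 to 68.3) of KO and 79.7% (71.3 to 86.5) of WT members, with a mean of 1.26 and 2.02 UMIs. In B lineage cells the thinned share was 3.31% in KO and 5% in WT. Id2 (ENSMUSG00000020644) is a protein-coding gene at chr12:25093799-25097140 of GRCm38, minus strand.

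The same rule called 50 genes higher in KO (1.55%) and 58 lower (1.8%) in cells with NK genes and CD3, 14 (0.421%) and 32 (0.963%) in Zbtb16 cells, and 12 (0.367%) and 13 (0.398%) in all other kept cells. Id2 was lower in KO in each neighbouring set of cells too. In cells with NK genes and CD3 it was at 375 CPM in KO against 983 CPM in WT (2.63-fold lower), in cells with at least 2 Zbtb16 UMIs and no Ncr1 at 216 against 984 CPM (4.55-fold), and in all other kept cells at 116 against 400 CPM (3.45-fold). Of the E protein genes, Tcf4 was at 128 CPM in KO against 297 CPM in WT, where 1 cell held 19.0% of its UMIs, and its log2 ratio was -0.25 and no longer called without members that carried UMIs of another lineage. Tcf3 was at 61.0 against 43.6 CPM and Tcf12 at 146 against 130 CPM. Id3 had no UMI in KO and 9.42 CPM in WT, in 5 cells.

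**Figure D3:**
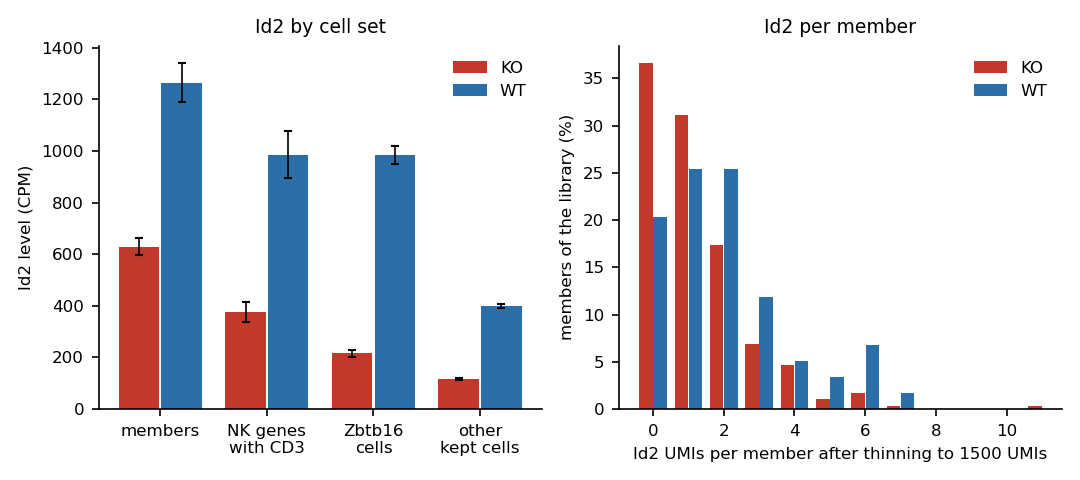
Left, Id2 level in CPM by cell set, KO in red and WT in blue, with exact Poisson intervals at 95%; right, the share of members of each library by Id2 UMIs per cell after thinning to 1500 UMIs. Id2 lies at 629 CPM in KO members and 1263.5 CPM in WT members, and 36.6% of KO against 20.3% of WT members had no UMI after thinning.

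Genes higher in KO included several of cell division. Hist1h2ap, a replication-linked histone gene, was at 446 CPM in KO against 161 CPM in WT, Birc5, survivin, at 67.5 against 27.1 CPM, Top2a, the mitotic topoisomerase, at 314 against 147 CPM, and Prc1, Usp1, Siva1, Gmnn and H2afx were called as well. Birc5 was seen in 25 KO (6.89%) and 9 WT members (7.63%), and weighted equally it stood at 23.5 against 22.8 CPM. Usp1, a deubiquitinase of DNA repair that was also called without cycling members, was seen in 103 KO (28.4%) and 23 WT members (19.5%). Weighting every member equally, 16 genes were higher in KO (0.472%) and 12 lower (0.354%), and without cycling members 19 (0.562%) and 34 (1.01%). Weighted equally, Top2a stood at 122 CPM in KO against 106 CPM in WT and Hist1h2ap at 171.6 against 171.7 CPM. Chka, choline kinase alpha, was at 123 CPM in KO (152 cells) against 53.0 CPM in WT (32 cells), and Fosl2, a member of the AP-1 family, at 79.3 CPM (123 cells) against 36.5 CPM (23 cells). Weighted equally, Chka was at 127 against 52.6 CPM and Fosl2 at 100.4 against 45.0 CPM. Cxcl10, a chemokine of the interferon response, was at 62.2 CPM in KO (39 cells) against 25.9 CPM in WT (6 cells). Cxcl10 was higher in KO outside the members too, at 63.3 against 4.24 CPM in Zbtb16 cells and 42.3 against 8.76 CPM in other kept cells. In cells with NK genes and CD3 it was at 8.59 against 6.41 CPM. Chka was at 93.4 against 66.3 CPM in those cells, 111 against 58.4 CPM in Zbtb16 cells and 114 against 72.0 CPM in other kept cells. Fosl2 was at 47.2 against 27.8, 52.3 against 72.7 and 41.1 against 41.1 CPM in the same sets, in that order. Chka was called in 12 of 14 alternative settings, Fosl2 in 11, Cxcl10 in 10 and Id2 in 6. Those 14 include an offset of 1 CPM and no minimum on UMIs or CPM, neither of which could remove a call.

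Genes lower in KO included those of plasmacytoid dendritic cells, which few WT cells held in the case of Siglech. Siglech, a surface lectin of these cells, was at 5.29 CPM in KO against 102 CPM in WT, where 1 cell held 49.4% of the UMIs and 9 cells held any. Ly6d, a marker of B-biased progenitors and plasmacytoid dendritic cells, was at 36.2 against 382 CPM, with 43.5% of the WT UMIs in 1 cell. It was seen in 24 KO (6.61%) and 26 WT members (22.0%), and the WT level without that cell was 222 CPM. Irf8, the regulator of dendritic cells, was at 106 CPM in KO (107 cells, 29.5%) against 273 CPM in WT (32 cells, 27.1%). Plac8 was at 175 CPM in KO (97 cells, 26.7%) against 352 CPM in WT (48 cells, 40.7%). Plac8 was called in 10 of 14 alternative settings, equal weights and thinning among them. It was not called with TMM factors, or when members with other-lineage UMIs, shared barcode sequences or the deepest members were left out in turn. The log2 ratio of Plac8 ranged from -2.09 to -0.28 over these settings. In WT, 1 cell held 34.8% of the Plac8 UMIs, and the level without that cell was 246 CPM. For Ccl4, a chemokine, 48 of 57 WT UMIs came from 1 cell, and the level was 14.2 CPM in KO against 67.1 CPM in WT and 10.7 CPM in WT without that cell. For Prss2 it was 54 of 56 UMIs, at 15.0 CPM in KO against 65.9 CPM in WT and 2.40 CPM in WT without it. Without members that carried 2 or more UMIs of another lineage (286 KO and 73 WT members left), 27 genes were higher (0.782%) and 14 lower (0.405%), and 9 of the 30 named genes were still called.

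**Figure D4:**
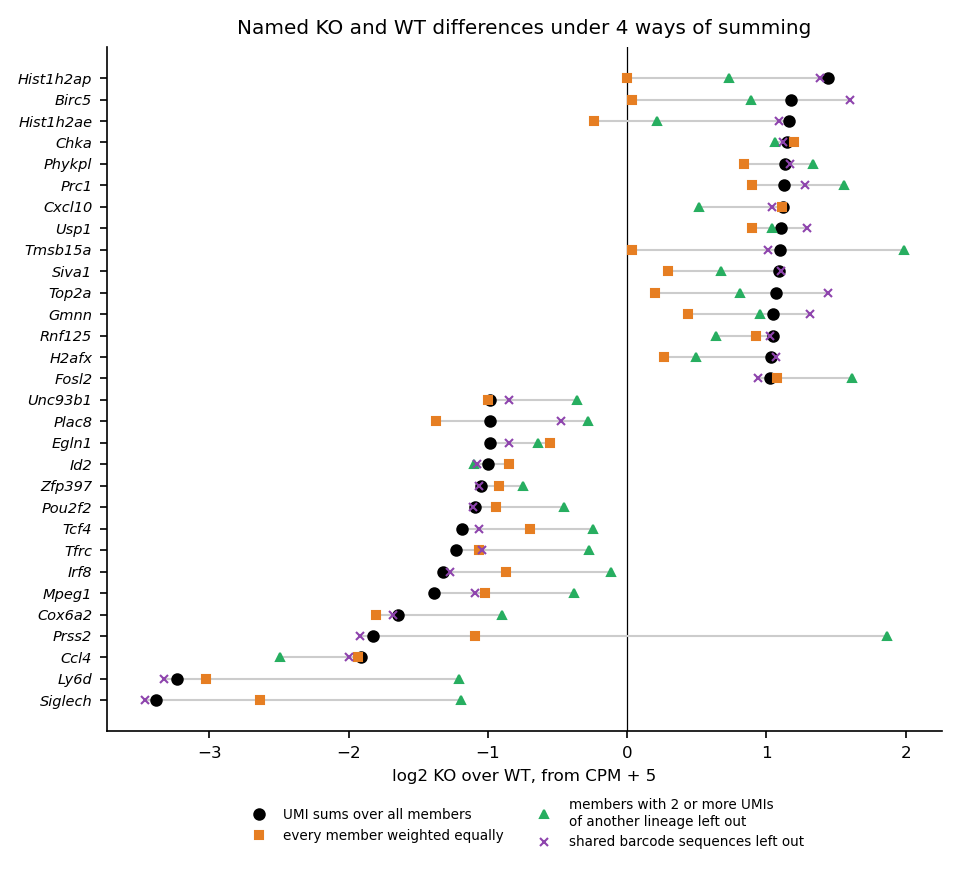
log2 of KO over WT, from CPM + 5, for 30 named genes under 4 ways of summing; black circles are UMI sums over all members, orange squares give every member the same weight, green triangles leave out members with 2 or more UMIs of another lineage and crosses leave out shared barcode sequences. Siglech, Ly6d and Irf8 lie nearer to 0 as green triangles than as black circles, and Id2 lies at -1 for UMI sums. Siglech is among the genes by which members were left out for the green triangles, so its shift follows from that choice.

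Within Eomes-undetected members, 19 genes were higher in KO (0.56% of 3390) and 22 lower (0.649%), close to the whole set. Within Eomes-detected members, 108 of 1228 were higher (8.79%) and 51 lower (4.15%), but WT had only 4 cells there, so single cells decide those calls.

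Over all 3392 genes the median log2 ratio was -0.02, with 119 genes at least 1.5-fold higher in KO (3.51%) and 105 lower (3.1%). The list of NK and ILC1 markers had a median of -0.22, with none of 5 past 1.5-fold, and the lectin receptors -0.26, with none of 11, but 3 genes of each list were read by the rule in both libraries, so these medians are a description. The type 1 lineage transcription factors had -0.06, with 2 of 14 lower, namely Irf8 and Runx2. Irf8 was no longer called without members that carried UMIs of another lineage, at a log2 ratio of -0.11, and 1 WT cell held 34.5% of its UMIs. Tbx21 was at 72.0 CPM in KO against 84.8 CPM in WT, Runx3 at 196 against 201 CPM, and Stat4, which signals from the interleukin-12 receptor, at 344 against 303 CPM. The cytokine receptors had a median of -0.01, with none of 11 past 1.5-fold. The cell cycle list had 0.65, with 13 of 18 higher, but per cell the medians were 18.7 UMIs per 10000 in KO and 17.6 in WT, and 1 WT cell gave 26.6% of the WT UMIs of the list. With every member weighted equally the median of the list was -0.11 and after thinning -0.05.

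The list of immediate early and stress genes had a higher sum in KO in members and in both sets beside them. The summed level was 10183 CPM in KO against 8336 CPM in WT members, 7729 against 5960 CPM in cells with NK genes and CD3, and 9610 against 6725 CPM in all other kept cells. In members its median was 0.48, with 5 of 20 at least 1.5-fold higher and none of the 20 below 0, and the range over 11 ways of summing was 0.30 to 0.62. Zfp36, an RNA-binding repressor of cytokine messages, was at 241 CPM in KO against 135 CPM in WT, Rgs2 at 202 against 120 CPM, Tnfaip3, an inhibitor of NF-kappaB, at 163 against 97.7 CPM and Dusp1, a phosphatase of MAP kinases, at 405 against 261 CPM. Fos stood at 867 against 605 CPM and Junb at 920 against 662 CPM. With 1 library per genotype, genotype and library cannot be told apart here. Ifng, the signature cytokine, was at 67.9 CPM in KO (82 cells) against 36.5 CPM in WT (20 cells), 1.86-fold higher with an interval of 1.26 to 2.82, and short of 2-fold. Its thinned share was 10.5% in KO and 5.08% in WT members.

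The list of plasmacytoid dendritic cell genes had a median of -1.25, with 6 of 6 measured genes at least 1.5-fold lower in KO, and the range over 9 ways of summing was -1.90 to -0.18. Its defining gene Siglech had no UMI in 357 of 363 KO members and 109 of 118 WT members. The part of these few cells in the KO and WT calls was not tested beyond leaving them out. Members were left out by UMIs of Siglech and Ccr9, among other genes. Both belong to this list, so its median under that setting is a description.

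**Figure D5:**
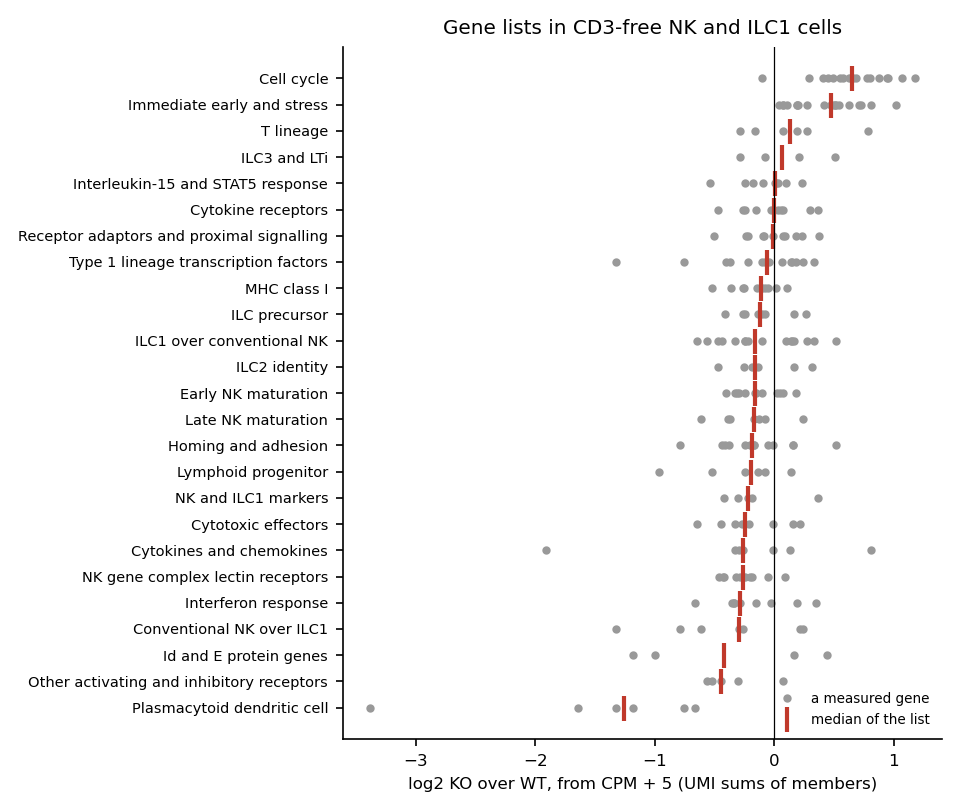
log2 of KO over WT, from CPM + 5 of UMI sums, for the measured genes of each list (grey) with the list median (red bar). The cell cycle list has a median of 0.65, the immediate early and stress list 0.48 and the plasmacytoid dendritic cell list -1.25.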

How the data were processed

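Droplet-based 3′ single-cell RNA sequencing gave 1 library per genotype. The authors deposited unnormalised UMI counts for every gene and barcode, written by Cell Ranger 3.1.0 per the file headers, with mm10 as the build per the submitters' processing notes. Those notes also name Seurat, with no role stated. Starting from these counts, members were found by the rule, their UMIs were summed per library for 31053 genes, and log2 ratios were taken from CPM + 5. Ratio intervals are exact conditional binomial intervals. A gene was measured with 50 UMIs over both sides and 50 CPM on the higher one, and called at 2-fold (1.5-fold in gene lists). Thinning drew 1500 UMIs per cell without replacement. The members and the 30 lists were chosen with earlier results of these data known. Named genes were the 20 leading genes of the profile, up to 15 highest and 15 lowest called genes per comparison, Id2, and the largest differences in each list. Mitochondrial, ribosomal protein, haemoglobin, immunoglobulin and T cell receptor genes, sex-linked RNAs and models without a symbol were left out of these rankings. Genes of the Eomes split named for KO alone were chosen after their values were seen. The calculations were tested on simulated data. Doublets were not called. Python 3.11.15, numpy 2.4.6, scipy 1.17.1, pandas 2.3.3 and edgeR 4.0.16 (TMM factors, an alternative only) were used.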

Additional observations from a re-analysis of the deposited data

How the results depend on the processing

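KO against WT, 23 genes were higher and 24 lower; higher genes numbered 13 with at least 500 genes per cell, 36 with 2 or more Ncr1 UMIs, 12 without members over 20000 UMIs, 41 without shared barcode sequences, 177 with no minimum on UMIs or CPM and 7 with a minimum of 100. Lower genes numbered 42 at no more than 5% mitochondrial UMIs, 14 without members carrying other-lineage UMIs, 11 without members over 20000 UMIs, 12 after thinning, 12 with equal weights, 278 with no minimum and 7 with a minimum of 100. Of lists with at least 4 measured genes, 20 had a median below 0, against 4 without members carrying T cell receptor UMIs and 11 after thinning. Measured genes were recounted in each setting, so these counts are out of differing numbers of lists. Without T cell receptor UMIs, 43 KO and 15 WT members were left. Of all 3392 genes measured in the main setting, 1800 lay below 0. Members were 1.67% of WT cells with at least 500 genes, 9.84% of KO and 4.31% of WT cells at no more than 5% mitochondrial UMIs, 5.94% and 2.67% with 2 or more Ncr1 UMIs, and 4.88% and 1.98% after thinning. Of the Eomes calls in both libraries (6 higher, 27 lower), higher genes numbered 1 with Eomes read after thinning, 3 with all members thinned and 18 with no minimum. Lower genes numbered 15 with 2 or more Ncr1 UMIs, 15 without other-lineage UMIs, 13 without cycling members, 10 with Eomes read after thinning, 0 with all members thinned and 11 with equal weights. In KO alone (208 higher, 250 lower), higher genes numbered 131 without cycling members, 81 at middle depth, 351 with 2 or more Eomes UMIs, 73 thinned and 492 with no minimum, and lower genes 408 at no more than 5% mitochondrial UMIs, 377 with 2 or more Eomes UMIs, 102 with Eomes read after thinning, 71 thinned and 571 with no minimum. After thinning, KO against WT gave 34 higher and 9 lower genes in Eomes-undetected and 6 and 2 in Eomes-detected members. These log2 values turned round. Prss2 was 1.88 with 2 or more Ncr1 UMIs and 1.87 without other-lineage UMIs. Without T cell receptor UMIs, H2afx was -0.59, and the medians were 0.52 for cytotoxic effectors, 0.31 for cytokines, 0.46 for conventional NK genes and 0.19 for interferon response. Hist1h2ae was -0.52 and Hist1h2ap -0.072 without members over 20000 UMIs, -0.48 and -0.12 after thinning, and -0.23 and -0.0014 with equal weights. Without cycling members, Birc5 was -0.017, H2afx -0.15, Tmsb15a -0.86 and the cytokine median 0.037. After thinning, Pou2f2 was 1.22, Siva1 -0.032, Tmsb15a -0.20, Top2a -0.035, the cytokine median 0.20 and the cell cycle median -0.051, which was -0.11 with equal weights. With Eomes read after thinning, Igfbp4 was -0.77 and Srm -0.15. The cause was not tested. The settings on 20000 UMIs, shared barcodes, cycling, middle depth and KO alone were chosen after seeing the data. The Eomes split without T cell receptor UMIs could not be run, since every Eomes-detected member carried one. No paired analysis was possible because each genotype has 1 library. An offset of 1 CPM could move no count of calls, since a call reads the ratio without an offset. The number of cells was smaller in WT, with 118 members and 4 Eomes-detected cells.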
